A study of Homo sapiens with 15 samples.

Results

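The genes described here are 47 genes of mitosis and the spindle, the structure of microtubules that pulls sister chromosomes apart. They were listed by name for what they do in cell division, with earlier results of these data known. All 47 were found among the 17214 genes that both deposited tables list. The cells were HaCaT, an immortalized line of human keratinocytes, and their RNA was sequenced after 24 h with silver sulfide nanoparticles. The 5 groups of 3 libraries were cells given Li-doped Ag2S NPs at 160 or 320 μg/mL, cells given Ag2S NPs without lithium at 160 or 320 μg/mL, and untreated HaCaT cells, the control. All groups are 1 cell line in culture, so no tissue or donor is represented. The libraries carry 15 separate replicate numbers, and whether each is a culture of its own is not stated, so p-values measure only the spread between these libraries, which may be technical. The study examined what the 2 types of particle change in keratinocyte RNA, and the same question is put here to the genes of division.

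In dividing cells most of these genes are transcribed late in the cycle, in G2 and mitosis, and their mRNA is low in resting cells. CDK1 with its cyclins starts mitosis, kinetochore proteins tie chromosomes to microtubules, the spindle checkpoint holds the cell until every chromosome is attached, and the anaphase-promoting complex then has securin and the cyclins destroyed. Kinesin motors and microtubule-binding proteins build the spindle, and a contractile ring divides the cell. In bulk RNA, fewer cells in these phases and less RNA of these genes per cell cannot be told apart.

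Expression was given as FPKM, a fragment count scaled by transcript length and by the fragments mapped in the library, so levels can be set side by side between genes. The deposited tables hold no read counts, so the depth is unknown. Precision was taken from the spread between the 3 libraries of a group, pooled over the groups in a fit. By limma this spread was also drawn toward that of genes at a similar level. The 3 control libraries had the same FPKM in the table of 160 μg/mL and in that of 320 μg/mL. Fold changes are on the log2(FPKM + 0.1) scale, which understates the change of genes at low FPKM, and a gene is said to have risen or fallen where limma gave a Benjamini-Hochberg adjusted p under 0.05 over all genes whose FPKM averaged 1 or more. All 47 genes passed that filter on the mean over the libraries at each dose, control included. At 320 μg/mL SGO1 passed only through control, with means of 2.99 FPKM in control, 0.92 with Ag2S NPs and 0.49 with Li-doped Ag2S NPs. The keratinocyte label was checked with 9 markers, all of which were expressed, at summed FPKM of 26318 to 31734 with Li-doped Ag2S NPs at 320 μg/mL and 9638 to 10009 in control. The marker lists of 4 other cell types each summed to at most 29.4 FPKM in any library, and no marker list had a gene reported as 0 in all libraries. The 4 leukocyte markers, of which 3 are in the tables, summed to 25.8 to 29.4 FPKM with Li-doped Ag2S NPs at 160 μg/mL and 11.1 to 12.1 FPKM in control, and the 6 fibroblast markers to at most 4.97 FPKM in treated cells and 10.7 to 15 FPKM in control. The part of these shifts in the results was not tested.

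Mitosis and spindle genes were lower in all 4 groups of treated cells, and lowest with Li-doped Ag2S NPs at the lower dose. With Li-doped Ag2S NPs at 160 μg/mL all 47 fell, beside 40.6% of all genes tested that fell and 22.6% that rose, with a median log2 fold change of -1.94 for the 47 and -0.19 for all genes. At 320 μg/mL of the Li-doped particle all 47 fell again, beside 44.6% of all genes that fell and 17.0% that rose, with medians of -1.67 for the 47 and -0.26 for all genes. Ag2S NPs at 160 μg/mL gave 41 of the 47 lower, beside 23.8% of all genes that fell and 11.5% that rose, with medians of -0.66 and -0.14, and the 6 that did not pass were SGO1, CENPE, SKA1, UBE2C, CDC20 and PTTG1. At 320 μg/mL of Ag2S NPs all 47 fell, beside 36.2% of all genes that fell and 16.2% that rose, with medians of -1.36 and -0.19. The SE of the log2 fold change of a member ran from 0.064 to 0.29 with Li-doped Ag2S NPs at 160 μg/mL and from 0.058 to 0.28 at 320 μg/mL, and had the same range with Ag2S NPs at each dose because the fit was shared.

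Summed over the 47 genes, FPKM averaged 578.5 ± 9.52 and 736.7 ± 15.4 with Li-doped Ag2S NPs at 160 and 320 μg/mL, 1326 ± 37.2 and 835.6 ± 10.5 with Ag2S NPs at 160 and 320 μg/mL, and 1890 ± 15 in control (SD, n = 3 each). The sums of the 5 groups did not overlap. As a share of the control sum this was 30.6% and 39% with the Li-doped particle, and 70.2% and 44.2% with Ag2S NPs. The median gene stood at 26.2% and 31.2% of its control mean with Li-doped Ag2S NPs at 160 and 320 μg/mL, and at 63% and 38.8% with Ag2S NPs. At 160 μg/mL of the Li-doped particle 44 of the 47 were under 50% of control and 20 under 25%, while with Ag2S NPs at the same dose 2 were under 50% and 0 under 25%. All 3 libraries of a treated group lay below all 3 control libraries for 47 genes in each group except Ag2S NPs at 160 μg/mL, where this held for 44. Of all genes tested, the same held for 45.5% and 48.6% with Li-doped Ag2S NPs at 160 and 320 μg/mL, and for 36.3% and 45.5% with Ag2S NPs. Within groups the libraries were close, except that replicate 15 of Li-doped Ag2S NPs at 320 μg/mL lay lower, at a mean of -1.79 on the log2 scale below control over the 47 genes, with -1.56 in both other libraries of its group.

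**Figure D1:**
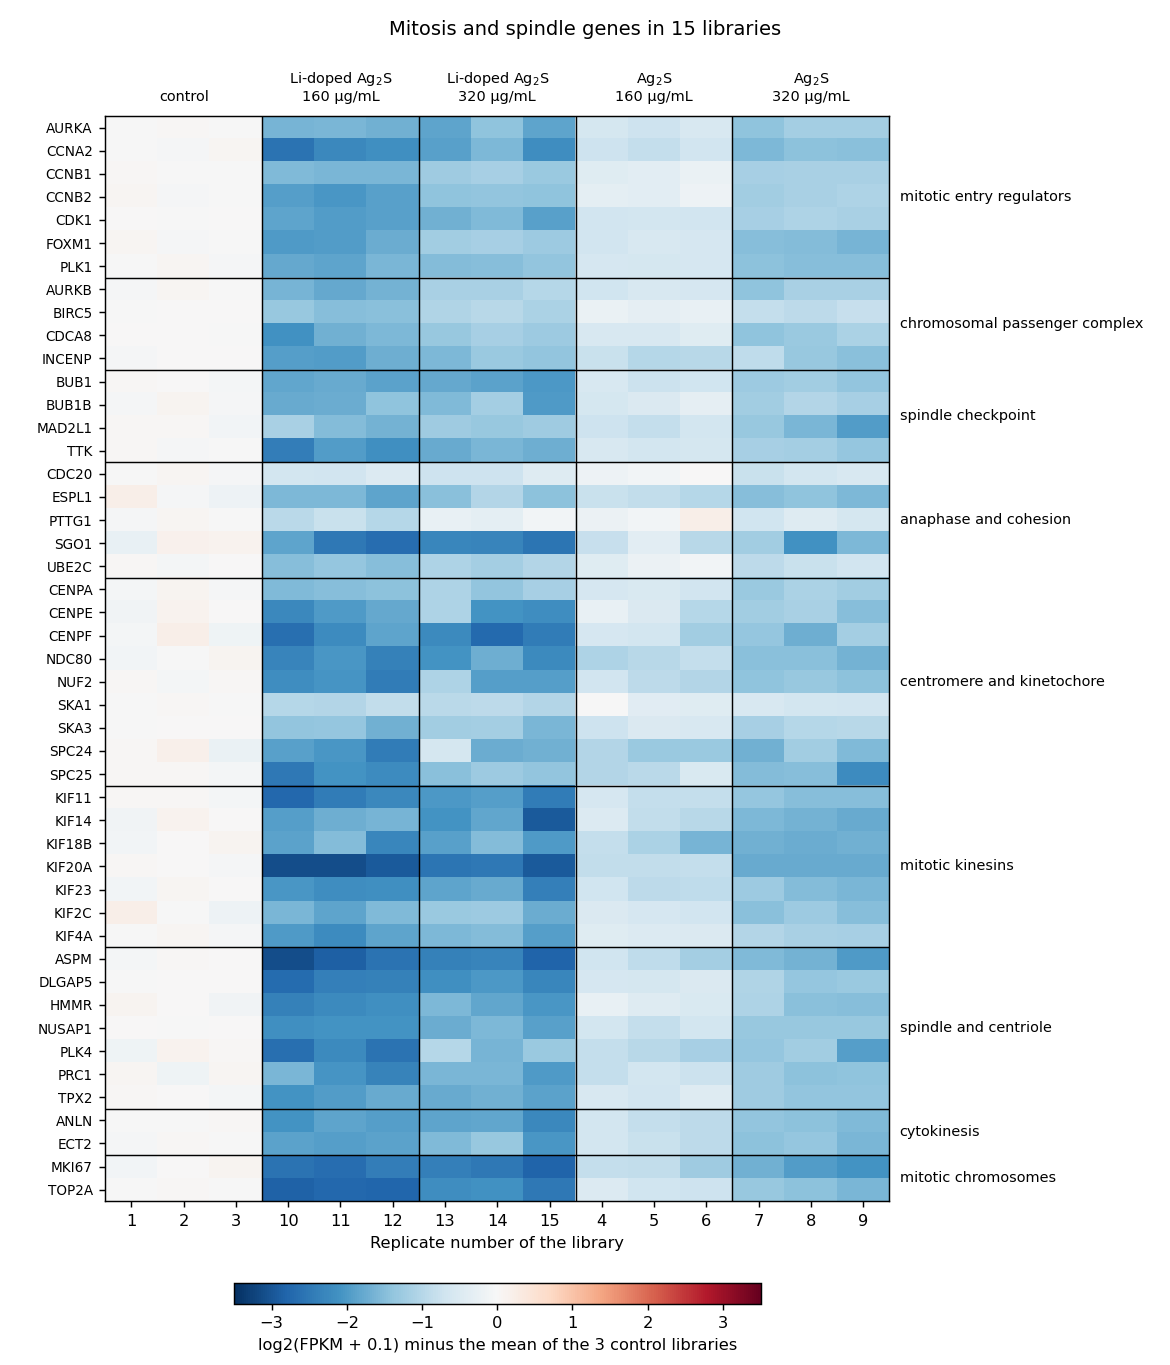
Heat map of the 47 genes (rows, grouped by role) in the 15 libraries (columns), as log2(FPKM + 0.1) minus the mean of the control libraries. Blue, below control, fills nearly all treated columns, and the columns of Li-doped Ag2S NPs at 160 μg/mL are the lowest for most rows, with a group median of -1.94.

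FPKM values already carry a scaling by the authors, and the median of all genes moved by -0.14 to -0.26 in the comparisons with control. Each library was also scaled by the median ratio of its genes to their geometric mean over the libraries. Genes averaging 1 FPKM or more and detected in every library were used for it. The median of all genes was then about -0.01. The share of all genes that fell was 30.1% and that rose 30.7% with Li-doped Ag2S NPs at 160 μg/mL, 26.4% and 28% at 320 μg/mL. For Ag2S NPs those shares were 14.1% and 16% at the lower dose, 22% and 23.8% at the higher. Of the 47 members 47 and 46 then fell with Li-doped Ag2S NPs at 160 and 320 μg/mL, with medians of -1.75 and -1.42, and 34 and 47 with Ag2S NPs, with medians of -0.54 and -1.19.

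Promoters of these genes often carry the CHR element, whose core reads TTTGAA, and CCAAT boxes, which in human cells are bound by the DREAM and MuvB complexes and by NF-Y. Both were searched by their letters on both strands in the RefSeq windows of 250 bases before to 50 after each start (GRCh38.p14), where 41 of the 47 genes had an entry. Of these 41, 31 (75.6%) held TTTGAA in a window, against 18.2% of 27305 genes, and 33 (80.5%) held CCAAT, against 39.7%. Both motifs were found in 24 (58.5%), against 7.26% of all genes. A match is a description of the letters. The following stretches of 100 bases end before the first annotated start and were picked to show genes with both motifs from several roles, namely the spindle pole gene ASPM, the chromosome coat gene MKI67, the kinesins KIF11 and KIF4A, and ESPL1 and CDC20 of anaphase. Capitals mark TTTGAA and CCAAT or their reverse complements TTCAAA and ATTGG, and in MKI67 1 copy of each overlap.
ASPM, chr1:197146695-197146794, minus strand: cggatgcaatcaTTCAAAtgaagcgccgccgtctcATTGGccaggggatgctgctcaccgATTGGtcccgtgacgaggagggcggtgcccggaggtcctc
MKI67, chr10:128126424-128126523, minus strand: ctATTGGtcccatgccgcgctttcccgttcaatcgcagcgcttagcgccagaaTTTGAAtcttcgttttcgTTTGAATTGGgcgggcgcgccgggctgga
KIF11, chr10:92593030-92593129, plus strand: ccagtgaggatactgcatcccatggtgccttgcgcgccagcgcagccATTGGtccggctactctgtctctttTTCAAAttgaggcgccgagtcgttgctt
KIF4A, chrX:70289990-70290089, plus strand: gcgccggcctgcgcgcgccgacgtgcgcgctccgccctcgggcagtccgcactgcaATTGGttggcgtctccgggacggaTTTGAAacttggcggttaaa
ESPL1, chr12:53268199-53268298, plus strand: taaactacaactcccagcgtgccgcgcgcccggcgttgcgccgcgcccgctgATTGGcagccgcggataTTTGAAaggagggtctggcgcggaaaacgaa
CDC20, chr1:43358855-43358954, plus strand: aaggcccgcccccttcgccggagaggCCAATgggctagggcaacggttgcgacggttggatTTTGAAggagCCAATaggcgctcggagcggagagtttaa

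The median fold changes of members with and without a motif were set side by side. With Li-doped Ag2S NPs at 160 μg/mL the median log2 fold change was -1.96 for the 31 members with TTTGAA and -1.91 for the 10 without, and with Ag2S NPs at 320 μg/mL it was -1.42 and -1.35. For CCAAT, held by 33 members and not by 8, the median log2 fold change was -2.004 with and -1.805 without the motif for Li-doped Ag2S NPs at 160 μg/mL, and -0.73 and -0.59 for Ag2S NPs at 160 μg/mL. Members with a motif had the lower median in all 4 comparisons with control for both motifs. The ranges of members with and without a motif overlapped in all 4 comparisons with control, and no test was made. The 6 printed genes ran from ASPM, which was among the 3 genes that fell furthest with the Li-doped particle, to CDC20, which fell least with it at 160 μg/mL.

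Among the 7 regulators of mitotic entry, the summed FPKM was 28.8% and 36.8% of control with Li-doped Ag2S NPs at 160 and 320 μg/mL, and 71% and 41.7% with Ag2S NPs. CCNB1 encodes cyclin B1, which activates CDK1 for entry into mitosis. CCNB1 stood at 112, 108 and 108 FPKM in control cells, at 37.3, 36.2 and 35.9 FPKM with Li-doped Ag2S NPs at 160 μg/mL and at 46, 48.7 and 44.7 FPKM at 320 μg/mL. With Ag2S NPs, CCNB1 stood at 81.9, 85 and 92.3 FPKM at 160 μg/mL and at 48.8, 49.8 and 49.4 FPKM at 320 μg/mL. No groups overlapped, although at 320 μg/mL the libraries of both particles were close. The log2 fold change against control was -1.58 ± 0.064 with Li-doped Ag2S NPs and -0.34 ± 0.064 with Ag2S NPs at 160 μg/mL (SE, limma, Benjamini-Hochberg adjusted p = 8.48e-09 and 0.00281). After scaling by median ratio the fall of CCNB1 with Ag2S NPs at 160 μg/mL was -0.21 and did not pass (limma, adjusted p = 0.0547). FOXM1 encodes a transcription factor that drives many genes of G2 and mitosis. FOXM1 stood at 47.6, 43.8 and 44.4 FPKM in control cells, at 11.5, 11.5 and 13.4 FPKM with Li-doped Ag2S NPs at 160 μg/mL and at 19.5, 20.3 and 18.7 FPKM at 320 μg/mL. With Ag2S NPs, FOXM1 stood at 28.4, 30.5 and 30.3 FPKM at 160 μg/mL and at 15.9, 15.6 and 14.6 FPKM at 320 μg/mL. FOXM1 was lowest with the Li-doped particle at 160 μg/mL, and at 320 μg/mL its Li-doped libraries lay above all those of Ag2S NPs.

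CDK1, the kinase that cyclins switch on, stood at 26.7% and 30.7% of the control mean with Li-doped Ag2S NPs at 160 and 320 μg/mL, and 63% and 45.8% with Ag2S NPs. For CCNA2, cyclin A2 of S phase and early mitosis, the values were 19.7% and 27.3% of the control mean with Li-doped Ag2S NPs at 160 and 320 μg/mL, and 59.4% and 35.3% with Ag2S NPs. CCNB2, a second B-type cyclin, stood at 25.6% and 37.9% of the control mean with Li-doped Ag2S NPs at 160 and 320 μg/mL, and 81.7% and 44.9% with Ag2S NPs. CDK1 and both cyclins were lowest with the Li-doped particle at the lower dose. PLK1, a kinase of mitotic entry and spindle poles, was at 29.8% and 36.4% of the control mean with Li-doped Ag2S NPs at 160 and 320 μg/mL, and 66.2% and 36% with Ag2S NPs. AURKA, the Aurora kinase of centrosomes, was at 32% and 30.9% of the control mean with Li-doped Ag2S NPs at 160 and 320 μg/mL, and 64.5% and 41.6% with Ag2S NPs. Among the 7, AURKA alone had a mean that was no higher at 320 than at 160 μg/mL of the Li-doped particle.

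The chromosomal passenger complex corrects faulty attachments at the centromere and later acts in cytokinesis. AURKB encodes its kinase. AURKB stood at 68.3, 73.2 and 69.7 FPKM in control cells, at 22.6, 20.4 and 22.2 FPKM with Li-doped Ag2S NPs at 160 μg/mL and at 32.1, 31.8 and 35.1 FPKM at 320 μg/mL. With Ag2S NPs, AURKB stood at 43.1, 47.6 and 46.4 FPKM at 160 μg/mL and at 26.6, 32 and 32 FPKM at 320 μg/mL. In every treated library AURKB lay below every control library, and with Li-doped Ag2S NPs it was higher at 320 than at 160 μg/mL without overlap. INCENP, the scaffold that holds the complex together, was at 27.5% and 37.4% of the control mean with Li-doped Ag2S NPs at 160 and 320 μg/mL, and 52.7% and 43.1% with Ag2S NPs. All 4 genes of the complex fell in each comparison with control. With Ag2S NPs at 160 μg/mL 2 of these calls depended on the processing. After scaling by median ratio BIRC5 (-0.14) and CDCA8 (-0.39) did not pass (limma, Benjamini-Hochberg adjusted p = 0.182 and 0.0627). BIRC5 also did not pass without control replicate 1, 2 or 3 or replicate 5 of that group (adjusted p of 0.052 to 0.0649, limma). The survivin gene BIRC5 was at 37.1% and 48.5% of the control mean with Li-doped Ag2S NPs at 160 and 320 μg/mL, and 82.8% and 55.3% with Ag2S NPs. CDCA8, which encodes borealin, was at 29% and 41.7% of the control mean with Li-doped Ag2S NPs at 160 and 320 μg/mL, and 69.9% and 41.3% with Ag2S NPs. Together they summed to 31% and 44.1% of control with the Li-doped particle at 160 and 320 μg/mL, and 65.9% and 45.2% with Ag2S NPs.

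In the spindle checkpoint, TTK encodes the kinase MPS1 that starts checkpoint signaling at kinetochores. TTK stood at 26.9, 25.8 and 26.3 FPKM in control cells, at 4.83, 6.66 and 5.88 FPKM with Li-doped Ag2S NPs at 160 μg/mL and at 7.71, 8.67 and 7.96 FPKM at 320 μg/mL. With Ag2S NPs, TTK stood at 17.8, 16.8 and 17.2 FPKM at 160 μg/mL and at 11.7, 11.4 and 10.2 FPKM at 320 μg/mL. TTK was below control in all treated libraries, and the Li-doped libraries lay below those of Ag2S NPs at both doses. BUB1, a checkpoint kinase of kinetochores, was at 28% and 26.5% of the control mean with Li-doped Ag2S NPs at 160 and 320 μg/mL, and 63% and 40.6% with Ag2S NPs. BUB1B, which encodes BubR1, an inhibitor of CDC20, was at 32.2% and 34.2% of the control mean with Li-doped Ag2S NPs at 160 and 320 μg/mL, and 71.7% and 45% with Ag2S NPs. MAD2L1, whose protein also holds CDC20 back, was at 37% and 41% of the control mean with Li-doped Ag2S NPs at 160 and 320 μg/mL, and 59.9% and 32.5% with Ag2S NPs. MAD2L1 and CDC20 were the 2 members with their lowest group mean in Ag2S NPs at 320 μg/mL.

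Genes of anaphase and cohesion held the members that changed least, summing to 49.8% and 64.8% of control with Li-doped Ag2S NPs at 160 and 320 μg/mL and to 91% and 61.5% with Ag2S NPs. PTTG1 encodes securin, which blocks separase until anaphase. PTTG1 stood at 133, 144 and 137 FPKM in control cells, at 71.6, 80.8 and 69.3 FPKM with Li-doped Ag2S NPs at 160 μg/mL and at 115, 109 and 129.9 FPKM at 320 μg/mL. With Ag2S NPs, PTTG1 stood at 119, 129 and 159.6 FPKM at 160 μg/mL and at 85, 100.0 and 90.3 FPKM at 320 μg/mL. The libraries of Ag2S NPs at 160 μg/mL spanned those of control, with a log2 fold change of -0.032 and a 95% interval of -0.26 to 0.20. With Li-doped Ag2S NPs at 320 μg/mL PTTG1 fell by 0.23 on the log2 scale (limma, Benjamini-Hochberg adjusted p = 0.0296). After scaling by median ratio this was 0.027 (adjusted p = 0.845), and it did not pass without control replicate 2 or 3 or replicate 13 or 14 of that group (adjusted p of 0.0631 to 0.103, limma). CDC20 encodes the activator of the anaphase-promoting complex. CDC20 stood at 95.5, 101 and 94.5 FPKM in control cells, at 61.7, 61.1 and 68.9 FPKM with Li-doped Ag2S NPs at 160 μg/mL and at 58.6, 58.9 and 71.3 FPKM at 320 μg/mL. With Ag2S NPs, CDC20 stood at 86, 90.8 and 97 FPKM at 160 μg/mL and at 56.4, 61.7 and 65.2 FPKM at 320 μg/mL. CDC20 overlapped control with Ag2S NPs at 160 μg/mL, and the libraries of the other 3 treated groups overlapped each other below control. UBE2C encodes the ubiquitin-conjugating enzyme of that complex. UBE2C stood at 141, 131 and 139 FPKM in control cells, at 48.7, 53.2 and 48.5 FPKM with Li-doped Ag2S NPs at 160 μg/mL and at 64, 59.8 and 67.2 FPKM at 320 μg/mL. With Ag2S NPs, UBE2C stood at 101, 118 and 129 FPKM at 160 μg/mL and at 72.4, 79.5 and 85.7 FPKM at 320 μg/mL. UBE2C libraries of Ag2S NPs at 160 μg/mL all lay below control, yet the difference of -0.24 did not pass the test (limma, Benjamini-Hochberg adjusted p = 0.0535).

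SGO1 encodes shugoshin, which guards cohesion at the centromere, and was the member with the lowest level in control. SGO1 stood at 2.46, 3.29 and 3.23 FPKM in control cells, at 0.76, 0.44 and 0.38 FPKM with Li-doped Ag2S NPs at 160 μg/mL and at 0.53, 0.52 and 0.42 FPKM at 320 μg/mL. With Ag2S NPs, SGO1 stood at 1.67, 2.26 and 1.47 FPKM at 160 μg/mL and at 1.22, 0.61 and 0.94 FPKM at 320 μg/mL. Its treated libraries were all below control, but at these low values the difference with Ag2S NPs at 160 μg/mL was -0.71 ± 0.29 (limma, Benjamini-Hochberg adjusted p = 0.0767). ESPL1, which encodes separase, the protease that opens cohesin rings, was at 30.9% and 40% of the control mean with Li-doped Ag2S NPs at 160 and 320 μg/mL, and 53.7% and 34.9% with Ag2S NPs. All 5 of these genes fell in the 3 other comparisons with control, and 1, ESPL1, fell with Ag2S NPs at 160 μg/mL.

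The 9 genes of the centromere and kinetochore summed to 27.9% and 34.1% of control with Li-doped Ag2S NPs at 160 and 320 μg/mL and to 60.6% and 40.8% with Ag2S NPs. CENPA encodes the histone H3 variant that marks centromeres. CENPA stood at 22.3, 25.2 and 22.9 FPKM in control cells, at 7.96, 8.26 and 8.57 FPKM with Li-doped Ag2S NPs at 160 μg/mL and at 11.1, 8.96 and 10.4 FPKM at 320 μg/mL. With Ag2S NPs, CENPA stood at 15.6, 16.1 and 14.7 FPKM at 160 μg/mL and at 9.47, 10.8 and 10.1 FPKM at 320 μg/mL. At 320 μg/mL the libraries of both particles overlapped, and the difference of Li-doped minus Ag2S had a 95% interval of -0.23 to 0.23. CENPE encodes a kinesin that carries chromosomes to the spindle equator. CENPE stood at 3.5, 4.17 and 3.85 FPKM in control cells, at 0.72, 0.9 and 1.04 FPKM with Li-doped Ag2S NPs at 160 μg/mL and at 1.76, 0.83 and 0.77 FPKM at 320 μg/mL. With Ag2S NPs, CENPE stood at 3.16, 2.67 and 1.88 FPKM at 160 μg/mL and at 1.58, 1.69 and 1.3 FPKM at 320 μg/mL. CENPE overlapped between doses of the Li-doped particle, and its difference of -0.59 with Ag2S NPs at 160 μg/mL did not pass the test (limma, Benjamini-Hochberg adjusted p = 0.0715). CENPF encodes a large protein of the outer kinetochore. CENPF stood at 21.7, 26.6 and 20.7 FPKM in control cells, at 3.59, 4.91 and 6.32 FPKM with Li-doped Ag2S NPs at 160 μg/mL and at 4.8, 3.38 and 4.15 FPKM at 320 μg/mL. With Ag2S NPs, CENPF stood at 15.3, 14.7 and 9.86 FPKM at 160 μg/mL and at 8.92, 6.9 and 9.89 FPKM at 320 μg/mL. CENPF was lower with the Li-doped particle than with Ag2S NPs in every library at each dose.

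SPC24 and SPC25 form the inner end of the NDC80 complex, the main microtubule grip of the kinetochore. SPC24 stood at 6.01, 6.67 and 4.99 FPKM in control cells, at 1.49, 1.35 and 1.00 FPKM with Li-doped Ag2S NPs at 160 μg/mL and at 3.75, 1.69 and 1.75 FPKM at 320 μg/mL. With Ag2S NPs, SPC24 stood at 2.85, 2.3 and 2.33 FPKM at 160 μg/mL and at 1.75, 2.48 and 1.94 FPKM at 320 μg/mL. SPC24 was the member that fell furthest with Ag2S NPs at 160 μg/mL, by 1.20 ± 0.20. SPC25 stood at 12.3, 12.3 and 11.5 FPKM in control cells, at 2.05, 2.77 and 2.56 FPKM with Li-doped Ag2S NPs at 160 μg/mL and at 4.26, 4.94 and 4.55 FPKM at 320 μg/mL. With Ag2S NPs, SPC25 stood at 5.88, 6.26 and 8.31 FPKM at 160 μg/mL and at 4.11, 4.18 and 2.54 FPKM at 320 μg/mL. All SPC25 libraries of the Li-doped particle at 320 μg/mL lay above those at 160 μg/mL, and the opposite order held without overlap for Ag2S NPs. The outer subunits followed, with NDC80 at 20.7% and 24.5% of the control mean with Li-doped Ag2S NPs at 160 and 320 μg/mL, and 51.2% and 34.2% with Ag2S NPs. NUF2 was at 20.9% and 32.9% of the control mean with Li-doped Ag2S NPs at 160 and 320 μg/mL, and 54.4% and 37.7% with Ag2S NPs.

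SKA1 and SKA3 belong to the SKA complex, which keeps kinetochores on shrinking microtubules. SKA1 stood at 11.7, 12 and 11.6 FPKM in control cells, at 5.85, 5.74 and 6.38 FPKM with Li-doped Ag2S NPs at 160 μg/mL and at 6.03, 6.12 and 5.74 FPKM at 320 μg/mL. With Ag2S NPs, SKA1 stood at 11.7, 8.88 and 8.79 FPKM at 160 μg/mL and at 7.88, 7.53 and 7.32 FPKM at 320 μg/mL. With Ag2S NPs at 160 μg/mL 1 SKA1 library stood within the control range, and the difference of -0.27 did not pass the test (limma, Benjamini-Hochberg adjusted p = 0.112). Both doses of the Li-doped particle overlapped for SKA1, with a 95% interval of the difference of -0.25 to 0.24. SKA3 was at 35.5% and 39.4% of the control mean with Li-doped Ag2S NPs at 160 and 320 μg/mL, and 66.2% and 47.9% with Ag2S NPs.

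Mitotic kinesins gave the largest change of a single gene. KIF20A encodes a kinesin of the central spindle that is needed for cytokinesis. KIF20A stood at 42.5, 41.9 and 40.5 FPKM in control cells, at 4.76, 4.77 and 5.3 FPKM with Li-doped Ag2S NPs at 160 μg/mL and at 7.03, 7.27 and 5.31 FPKM at 320 μg/mL. With Ag2S NPs, KIF20A stood at 22.9, 23 and 23.5 FPKM at 160 μg/mL and at 12.2, 12.1 and 12.2 FPKM at 320 μg/mL. The 4 treated groups did not overlap with control or with the other particle at the same dose. KIF20A fell to 11.9% of control with Li-doped Ag2S NPs at 160 μg/mL, a log2 fold change of -3.05 ± 0.08 (limma, Benjamini-Hochberg adjusted p = 4.14e-10). KIF18B encodes a kinesin that limits the growth of astral microtubules. KIF18B stood at 6.8, 7.31 and 7.78 FPKM in control cells, at 1.91, 2.48 and 1.42 FPKM with Li-doped Ag2S NPs at 160 μg/mL and at 1.89, 2.49 and 1.76 FPKM at 320 μg/mL. With Ag2S NPs, KIF18B stood at 4.07, 3.35 and 2.3 FPKM at 160 μg/mL and at 2.22, 2.13 and 2.21 FPKM at 320 μg/mL. KIF18B overlapped between the doses of the Li-doped particle and between the particles at 320 μg/mL, and all treated libraries lay below control.

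KIF11, the motor that pushes spindle poles apart, was at 17.7% and 22.7% of the control mean with Li-doped Ag2S NPs at 160 and 320 μg/mL, and 59.1% and 36.5% with Ag2S NPs. KIF23, which with a partner bundles the central spindle, was at 22.8% and 25.1% of the control mean with Li-doped Ag2S NPs at 160 and 320 μg/mL, and 55.9% and 36.1% with Ag2S NPs. KIF2C, which takes microtubules apart at centromeres, was at 31.3% and 36.7% of the control mean with Li-doped Ag2S NPs at 160 and 320 μg/mL, and 66.1% and 37.3% with Ag2S NPs. These 3 fell in all 4 comparisons. KIF4A, a motor of chromosome arms and the central spindle, was at 24.5% and 31.2% of the control mean with Li-doped Ag2S NPs at 160 and 320 μg/mL, and 72% and 46.1% with Ag2S NPs. KIF14, a kinesin of cytokinesis, was at 28.5% and 20.4% of the control mean with Li-doped Ag2S NPs at 160 and 320 μg/mL, and 58.1% and 30.5% with Ag2S NPs. Over the 7 kinesins the sum was 21.2% and 24.7% of control with the Li-doped particle at 160 and 320 μg/mL, and 59% and 35% with Ag2S NPs.

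Of the 7 genes of the spindle and centriole, ASPM encodes a protein of spindle poles. ASPM stood at 16.8, 18.2 and 17.9 FPKM in control cells, at 1.96, 2.34 and 2.87 FPKM with Li-doped Ag2S NPs at 160 μg/mL and at 3.35, 3.46 and 2.43 FPKM at 320 μg/mL. With Ag2S NPs, ASPM stood at 10.8, 9.52 and 7.7 FPKM at 160 μg/mL and at 5.96, 5.5 and 4.37 FPKM at 320 μg/mL. ASPM was lower with the Li-doped particle than with Ag2S NPs in every library at each dose, as were DLGAP5, HMMR and NUSAP1. DLGAP5 encodes HURP, which stabilizes spindle microtubules near chromosomes. DLGAP5 stood at 28.9, 29.3 and 29.3 FPKM in control cells, at 4.39, 5.53 and 5.62 FPKM with Li-doped Ag2S NPs at 160 μg/mL and at 6.51, 7.19 and 5.94 FPKM at 320 μg/mL. With Ag2S NPs, DLGAP5 stood at 19.5, 19.2 and 20.4 FPKM at 160 μg/mL and at 13.9, 11.4 and 11.9 FPKM at 320 μg/mL. The DLGAP5 libraries of the 2 Li-doped doses did not overlap. HMMR encodes a spindle assembly protein. HMMR stood at 32.5, 30.5 and 27.8 FPKM in control cells, at 5.78, 6.33 and 6.77 FPKM with Li-doped Ag2S NPs at 160 μg/mL and at 10.1, 8.55 and 7.34 FPKM at 320 μg/mL. With Ag2S NPs, HMMR stood at 25.4, 21.9 and 20.9 FPKM at 160 μg/mL and at 14.3, 10.9 and 10.8 FPKM at 320 μg/mL. HMMR fell by 2.25 ± 0.11 with Li-doped Ag2S NPs at 160 μg/mL (limma, Benjamini-Hochberg adjusted p = 2.38e-08).

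NUSAP1 encodes a protein that bundles spindle microtubules and had the highest control level of its role. NUSAP1 stood at 99, 97.6 and 100.0 FPKM in control cells, at 22.2, 22.9 and 23 FPKM with Li-doped Ag2S NPs at 160 μg/mL and at 29.8, 33 and 26.4 FPKM at 320 μg/mL. With Ag2S NPs, NUSAP1 stood at 63, 54.9 and 63.3 FPKM at 160 μg/mL and at 39.1, 39.2 and 39.4 FPKM at 320 μg/mL. Its groups did not overlap. PLK4 encodes the kinase that starts the copying of centrioles. PLK4 stood at 10.3, 12.4 and 11.8 FPKM in control cells, at 1.76, 2.34 and 1.84 FPKM with Li-doped Ag2S NPs at 160 μg/mL and at 5.69, 3.67 and 4.61 FPKM at 320 μg/mL. With Ag2S NPs, PLK4 stood at 6.41, 5.77 and 5.08 FPKM at 160 μg/mL and at 4.41, 4.89 and 2.94 FPKM at 320 μg/mL. PLK4 had the largest difference between doses of the Li-doped particle, with every library at 320 μg/mL above every library at 160 μg/mL. PRC1, which crosslinks microtubules in the central spindle, was at 25.3% and 30.3% of the control mean with Li-doped Ag2S NPs at 160 and 320 μg/mL, and 59.6% and 38.8% with Ag2S NPs. TPX2, which activates AURKA on the spindle, was at 26.2% and 29.2% of the control mean with Li-doped Ag2S NPs at 160 and 320 μg/mL, and 67.7% and 39.5% with Ag2S NPs.

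In cytokinesis, ANLN encodes anillin, a scaffold of the contractile ring. ANLN stood at 56, 56 and 58.9 FPKM in control cells, at 13.3, 15.9 and 14.9 FPKM with Li-doped Ag2S NPs at 160 μg/mL and at 15.9, 16.2 and 11.8 FPKM at 320 μg/mL. With Ag2S NPs, ANLN stood at 36.4, 31.8 and 29.9 FPKM at 160 μg/mL and at 21.7, 21.1 and 19.5 FPKM at 320 μg/mL. The doses of the Li-doped particle overlapped for ANLN, while those of Ag2S NPs did not. ECT2, which activates RhoA to form the ring, was at 26.8% and 32.6% of the control mean with Li-doped Ag2S NPs at 160 and 320 μg/mL, and 58.4% and 36.2% with Ag2S NPs. On mitotic chromosomes, MKI67 encodes Ki-67, the coat protein and stain of dividing cells. MKI67 stood at 26.7, 28.6 and 30.1 FPKM in control cells, at 4.62, 4.41 and 5.27 FPKM with Li-doped Ag2S NPs at 160 μg/mL and at 5.38, 4.96 and 4.02 FPKM at 320 μg/mL. With Ag2S NPs, MKI67 stood at 16, 15.5 and 11.9 FPKM at 160 μg/mL and at 8.85, 7.25 and 6.61 FPKM at 320 μg/mL. With Ag2S NPs at 320 μg/mL MKI67 fell furthest of all members, to 26.6% of control. TOP2A encodes the topoisomerase that untangles sister chromatids. TOP2A stood at 81.6, 85.7 and 82.2 FPKM in control cells, at 11.6, 12.3 and 12.1 FPKM with Li-doped Ag2S NPs at 160 μg/mL and at 18.4, 19 and 14.7 FPKM at 320 μg/mL. With Ag2S NPs, TOP2A stood at 60, 51.1 and 50.3 FPKM at 160 μg/mL and at 33.2, 30.8 and 27.4 FPKM at 320 μg/mL. TOP2A fell to 14.4% of control with Li-doped Ag2S NPs at 160 μg/mL, without overlap with any other group.

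**Figure D2:**
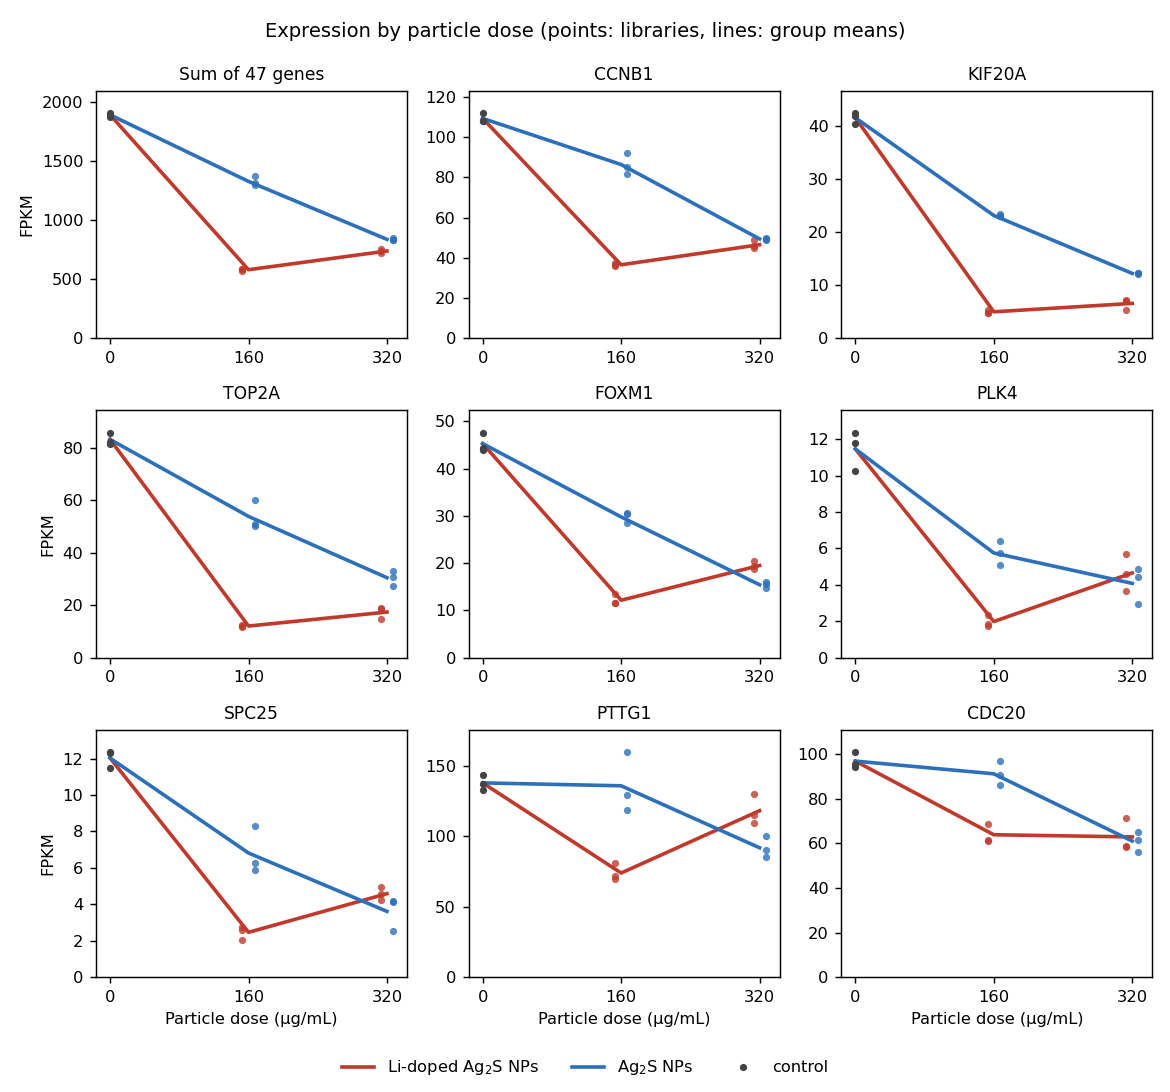
FPKM (vertical axes) of the sum of the 47 genes and of 8 single genes by particle dose in μg/mL (horizontal axes), in red for Li-doped Ag2S NPs, blue for Ag2S NPs and black for control, with points for libraries and lines through the group means. With Ag2S NPs the means fall at each step, while with Li-doped Ag2S NPs most fall furthest at 160 μg/mL.

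The particles were compared at the same dose to ask what lithium doping adds. At 160 μg/mL all 47 genes were lower with Li-doped Ag2S NPs than with Ag2S NPs, beside 29.0% of all genes that were lower and 21.4% that were higher, with a median difference of -1.26 for the 47 and -0.05 for all genes. For 46 genes all Li-doped libraries lay below all Ag2S libraries, as they did for 31.2% of all genes tested. The largest differences were those of KIF20A at -2.21 ± 0.08, TOP2A at -2.15 ± 0.08 and ASPM at -1.93 ± 0.16 (limma, Benjamini-Hochberg adjusted p = 1e-08, 1.09e-08 and 3.65e-06).

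At 320 μg/mL the particles were closer. There 22 genes were lower and 2 higher with Li-doped Ag2S NPs, beside 16.1% and 10.1% of all genes, and 23 did not pass the test, with a median difference of -0.36 for the 47 and -0.08 for all genes. Without replicate 15 of the Li-doped group the median difference of the 47 was -0.24. With only the 2 compared groups in the fit, 15 of 46 genes tested were lower. In the main fit the largest differences were CENPF at -1.04 ± 0.17, DLGAP5 at -0.91 ± 0.11 and KIF20A at -0.90 ± 0.11 (limma, Benjamini-Hochberg adjusted p = 0.0016, 0.000203 and 0.000361). The 2 higher genes were FOXM1 at 0.34 ± 0.075 and PTTG1 at 0.36 ± 0.08 (adjusted p = 0.00876 and 0.00841). When libraries were scaled to their sum of FPKM only 1 gene was called higher, and FOXM1 did not pass (0.23, limma, adjusted p = 0.109). Among the 23 that did not pass, PLK1 differed by 0.015 with a 95% interval of -0.13 to 0.16, and CDC20 by 0.04 with an interval of -0.15 to 0.23.

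Between the doses of Ag2S NPs, 38 genes were lower at 320 than at 160 μg/mL, beside 7.68% of all genes that were lower and 4.84% that were higher, with medians of -0.64 and -0.04. The means of all 47 ran downward over control, 160 and 320 μg/mL, and for 44 every library at 320 lay below every library at 160 μg/mL, which held for 19.3% of all genes tested. FOXM1 (-0.95 ± 0.081), HMMR (-0.93 ± 0.13) and MKI67 (-0.92 ± 0.15) led. The 9 that did not pass the test were SGO1, CENPE, CENPF, NUF2, PLK4, KIF18B, SKA1, INCENP and SPC24.

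With Li-doped Ag2S NPs the order of doses was the other way round. Of the 47, 23 were higher at 320 than at 160 μg/mL and 24 did not pass the test, beside 19.6% of all genes that were higher and 23.3% that were lower, with a median of 0.34 for the 47 and -0.06 for all genes. For 22 genes all libraries at 320 lay above those at 160 μg/mL, which held for 22% of all genes tested, and the mean was higher for 39. PLK4 (1.18 ± 0.20), SPC25 (0.88 ± 0.19) and SPC24 (0.78 ± 0.27) differed most (limma, Benjamini-Hochberg adjusted p = 0.00022, 0.00154 and 0.0291). The SPC24 value rested on replicate 13 of the 320 μg/mL group, and without it the difference was 0.42 and did not pass the test (limma, Benjamini-Hochberg adjusted p = 0.163). SPC24 also missed the threshold without replicate 12 of the 160 μg/mL group and with only the 2 compared groups in the fit (limma, Benjamini-Hochberg adjusted p = 0.107 and 0.104). Without replicate 15 the count of higher genes was 28, and with only the 2 compared groups in the fit it was 14. Of the 5 group means, the lowest was that of Li-doped Ag2S NPs at 160 μg/mL for 38 genes and at 320 μg/mL for 7, which were AURKA, BUB1, SGO1, CENPF, SKA1, KIF14 and ANLN. This order of doses was not particular to the 47. Of 105 other mitosis genes 34 were higher at 320 μg/mL and 5 lower, with a median of 0.24. Of 34 DNA replication genes 18 were higher and 0 lower, with a median of 0.40.

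The dose effects of both particles were compared as the dose difference of Li-doped Ag2S NPs minus that of Ag2S NPs, in 1 fit of all 15 libraries. By the test it was above 0 for 41 of the 47 genes, beside 20.2% of all genes called above 0 and 19.5% called below. The estimates of all 47 were above 0, the lowest at 0.35. The median was 0.96 for the 47 and -0.04 for all genes. SPC25 had the largest value at 1.80 ± 0.27, followed by PLK4 at 1.69 ± 0.28 and FOXM1 at 1.63 ± 0.11 (limma, Benjamini-Hochberg adjusted p = 8.36e-05, 0.000227 and 4.19e-08). The 6 that did not pass were SKA1, KIF14, CENPF, KIF18B, SGO1 and CENPE. Of 105 other mitosis genes 54 were called above 0 and 1 below, with a median of 0.58. Of 34 DNA replication genes 19 were called above 0 and 0 below, with a median of 0.65. The difference between these lists and the 47 was not tested.

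**Figure D3:**
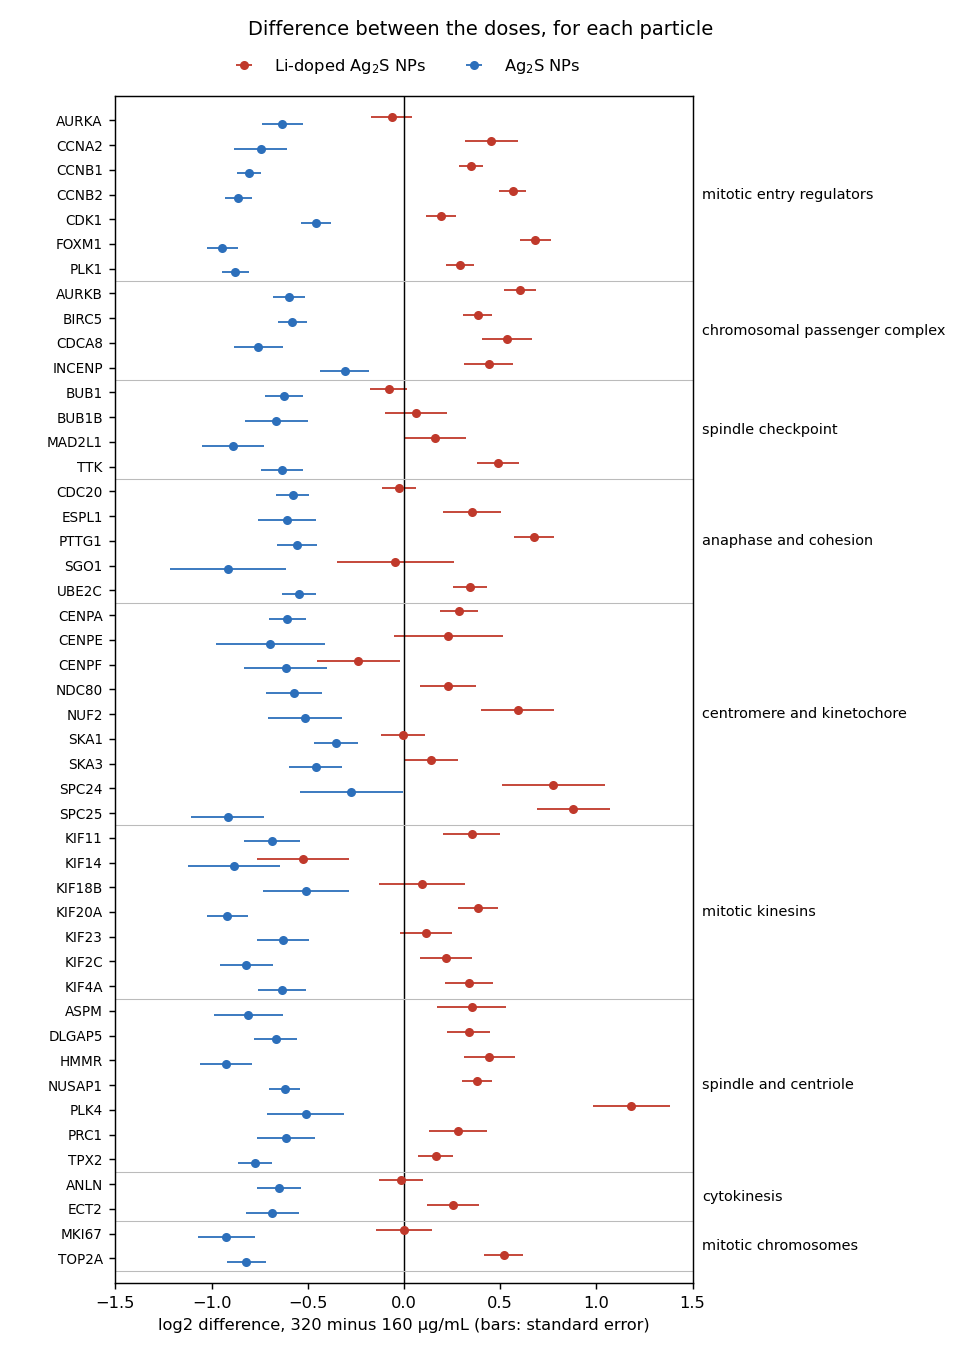
Log2 difference of 320 minus 160 μg/mL (horizontal axis, points with standard errors) for each of the 47 genes (rows, grouped by role), with Li-doped Ag2S NPs in red and Ag2S NPs in blue. The Ag2S points all lie below 0, and those of Li-doped Ag2S NPs lie mostly above 0, with PLK4 highest.

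The tables of transcripts list 314 transcripts of the 47 genes. The same transcript led in all 5 groups for 42 genes, the exceptions being AURKA, CCNA2, MKI67, NUF2 and SGO1. The transcript that led in control was then followed in all groups. Its median share of a gene's FPKM was 73.6% in control. The share was 72.2% and 70.5% with Li-doped Ag2S NPs at 160 and 320 μg/mL, and 74.2% and 72.9% with Ag2S NPs. This transcript was below its control mean for all 47 genes in each treated group. Because it was picked as the highest in control, lower treated values are favored, so this is a description only. The leading transcript was annotated as protein coding for 44 genes, and as another type for INCENP, SGO1 and MAD2L1.

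The exons of 9 members share bases with another gene in the tables. No source used here says whether strand was used in the counting, so reads on the shared bases may not be told apart. KIF20A overlaps BRD8 and CDC23 on the opposite strand. BRD8 averaged 10.2 and 14.2 FPKM with Li-doped Ag2S NPs at 160 and 320 μg/mL, 19.9 and 15.8 FPKM with Ag2S NPs and 40.6 FPKM in control. BRD8 was thus lower in treated cells as well. ANLN overlaps KIAA0895, which averaged 11.7 and 8.76 FPKM with the Li-doped particle, 8.36 and 9.43 FPKM with Ag2S NPs and 6.44 FPKM in control, and CENPA overlaps SLC35F6 on the same strand. The other overlapping members were CCNA2, FOXM1, PLK1, BUB1B, KIF4A and SPC24.

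A list of 105 other genes of mitosis, also chosen with earlier results of these data known, moved the same way. With Li-doped Ag2S NPs 96 fell and 1 rose at 160 μg/mL and 95 fell and 1 rose at 320 μg/mL, and with Ag2S NPs 74 and 93 fell, with medians of -1.46, -1.18, -0.52 and -0.95 in this order. Of all genes tested 40.6%, 44.6%, 23.8% and 36.2% fell, in the same order. CENPW encodes a protein of the inner kinetochore. CENPW stood at 87.4, 87.2 and 96.8 FPKM in control cells, at 10.5, 13.1 and 12 FPKM with Li-doped Ag2S NPs at 160 μg/mL and at 17.1, 18.7 and 19 FPKM at 320 μg/mL. With Ag2S NPs, CENPW stood at 76.4, 84 and 96.6 FPKM at 160 μg/mL and at 30.6, 29.6 and 32.5 FPKM at 320 μg/mL. CENPW overlapped control with Ag2S NPs at 160 μg/mL and was far below it in the other groups. The 8 condensin subunits, which compact chromosomes, all fell in 3 comparisons and 7 fell with Ag2S NPs at 160 μg/mL. Of these, SMC2 fell by 2.65 and 2.04 on the log2 scale with the Li-doped particle at 160 and 320 μg/mL. All 11 genes of cohesin fell with the Li-doped particle at each dose, with RAD21, the cleaved cohesin subunit, at -1.17 and -1.05. The 5 other mitotic kinesins fell in each comparison but 1, where 4 did, and KIF18A, which damps chromosome movement, was at -2.70 and -2.46 with the Li-doped particle.

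The gene of that list that rose was CDC25B, a phosphatase that activates CDK1. CDC25B stood at 108, 115 and 115 FPKM in control cells, at 129, 134 and 133 FPKM with Li-doped Ag2S NPs at 160 μg/mL and at 179, 181 and 180.3 FPKM at 320 μg/mL. With Ag2S NPs, CDC25B stood at 105, 108 and 102 FPKM at 160 μg/mL and at 114, 111 and 109 FPKM at 320 μg/mL. CDC25B was above control in every Li-doped library. Its rise was 0.23 and 0.68 at 160 and 320 μg/mL (limma, Benjamini-Hochberg adjusted p = 0.00558 and 1.59e-06), and at 160 μg/mL it did not pass after scaling to the sum of FPKM (0.14, adjusted p = 0.0901). In a list of 17 genes of the anaphase-promoting complex and its regulators, 10 fell at each dose of the Li-doped particle, and 5 and 11 fell with Ag2S NPs at 160 and 320 μg/mL, with medians of -0.32, -0.35, -0.19 and -0.45. Beside them 40.6%, 44.6%, 23.8% and 36.2% of all genes fell, in the same order. After scaling by median ratio 7, 5, 4 and 6 of the 17 fell and 1 rose with Li-doped Ag2S NPs at 320 μg/mL. The shares of all genes that fell were then 30.1%, 26.4%, 14.1% and 22%. CDC16, a core subunit, was at -0.19 and -0.74 with the Li-doped particle at 160 and 320 μg/mL, while FBXO5, an inhibitor of the complex, was at -1.66 and -1.75.

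Most tubulin genes, which encode the building blocks of microtubules, were higher in treated cells. Of 13 tubulin genes tested at 160 μg/mL 8 rose and 3 fell with Li-doped Ag2S NPs, and 7 rose and 6 did not pass with Ag2S NPs. At 320 μg/mL 12 were tested, of which 7 rose and 1 fell with the Li-doped particle and 7 rose and 2 fell with Ag2S NPs. Of all genes tested, 22.6% and 17.0% rose with Li-doped Ag2S NPs at 160 and 320 μg/mL, and 11.5% and 16.2% with Ag2S NPs. The shares of all genes that fell were 40.6%, 44.6%, 23.8% and 36.2% in this order. TUBA1A stood at 2.16, 2.13 and 2.15 FPKM in control cells, at 19.1, 22.1 and 21.7 FPKM with Li-doped Ag2S NPs at 160 μg/mL and at 15.9, 15.8 and 19.1 FPKM at 320 μg/mL. With Ag2S NPs, TUBA1A stood at 11.8, 13.3 and 13 FPKM at 160 μg/mL and at 25, 25 and 27.4 FPKM at 320 μg/mL. TUBA1A, an alpha-tubulin, was higher in every treated library than in any control library. TUBD1, the delta-tubulin of centrioles, fell by 0.99 and 0.91 with the Li-doped particle. Kinesins of transport and other tasks were mixed, with 7 up and 5 down of 21 at 160 μg/mL and 5 up and 8 down of 20 at 320 μg/mL of the Li-doped particle. With Ag2S NPs 5 rose and 1 fell at 160 μg/mL, and 6 rose and 5 fell at 320 μg/mL. These counts moved with the scaling, to 10 up and 1 down by median ratio and 4 up and 5 down by the sum of FPKM for the Li-doped particle at 160 μg/mL. Of all genes 30.7% were then up and 30.1% down by median ratio, and 19.2% up and 44.6% down by the sum of FPKM. KLC3, a kinesin light chain, rose by 1.30 and 1.49 with the Li-doped particle, while KIF5B, a motor of organelle transport, fell by 0.39 and 0.85.

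DNA replication genes fell too, 34 of 34 with Li-doped Ag2S NPs at each dose, and 29 and 34 with Ag2S NPs at 160 and 320 μg/mL. Their medians were -1.40, -0.88, -0.73 and -1.02, against -1.94, -1.67, -0.66 and -1.36 for the mitosis and spindle genes, and the difference between the lists was not tested. PCNA, the sliding clamp of DNA polymerases, was at -1.32 and -1.03 with the Li-doped particle and -0.79 and -1.12 with Ag2S NPs. Of the list of transcription regulators of the cell cycle, 14 of 23 tested fell and 2 rose with Li-doped Ag2S NPs at 160 μg/mL, and 17 of 24 fell and 1 rose at 320 μg/mL. With Ag2S NPs 16 of 23 fell and 1 rose at 160 μg/mL, and 15 of 24 fell and 1 rose at 320 μg/mL. Beside both lists, 40.6% and 44.6% of all genes fell with Li-doped Ag2S NPs at 160 and 320 μg/mL, and 22.6% and 17.0% rose. With Ag2S NPs 23.8% and 36.2% of all genes fell, and 11.5% and 16.2% rose. CDKN1A, which encodes the CDK inhibitor p21, was the regulator of this list that rose in each of the 4 groups. CDKN1A stood at 117, 124 and 117 FPKM in control cells, at 358, 339.9 and 374 FPKM with Li-doped Ag2S NPs at 160 μg/mL and at 249, 239.7 and 284 FPKM at 320 μg/mL. With Ag2S NPs, CDKN1A stood at 197, 209 and 199 FPKM at 160 μg/mL and at 190.0, 201 and 214 FPKM at 320 μg/mL. Every treated CDKN1A library lay above every control library, with the highest values at 160 μg/mL of the Li-doped particle. The pocket protein gene RB1 fell by 0.83 and 0.84 with the Li-doped particle.

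**Figure D4:**
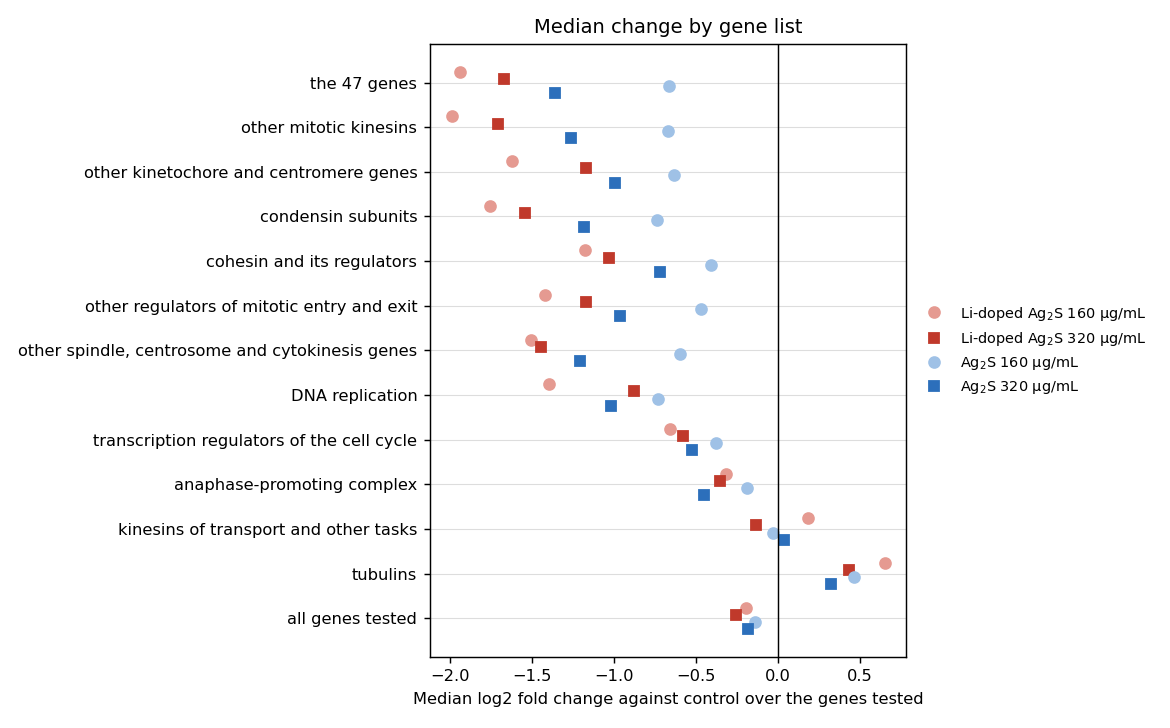
Median log2 fold change against control of the 47 mitosis and spindle genes, of the other gene lists and of all genes tested, for the 4 treated groups. The mitosis and spindle genes lie between -0.66 and -1.94, all genes between -0.14 and -0.26, and tubulins above 0 in each group.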

How the data were processed

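HaCaT RNA was sequenced as paired reads of 150 bases from 15 libraries in 5 groups taken from the sample labels. Per the labels, the authors used TopHat, Cufflinks 2.1.1 and Cuffdiff, and deposited FPKM of each gene in each library, to 2 decimals, with no counts, so the depth is unknown. Genome build and annotation were not given in the sources used here. Columns of the authors' own comparisons hold fold changes and p-values and were not used. All 18179 gene identifiers used occur in GENCODE release 29 on GRCh38.

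log2(FPKM + 0.1) was fitted with limma 3.58.1 in R 4.3.3 (lmFit, eBayes with a trend, 2-sided, Benjamini-Hochberg over all genes averaging 1 FPKM or more, adjusted p under 0.05). Each dose had 1 fit of 9 libraries, and doses and the interaction 1 fit of 15. The procedure was tested on simulated data. The members and gene lists were chosen with earlier results of these data known. Every member may be named. Per-library FPKM was given for the most abundant member of each role, the 3 largest and 2 smallest changes against control, members that missed the threshold or rose, and up to 3 called members with the largest differences in each other comparison. From each other list up to 3 genes with the smallest p and up to 2 moving opposite to it could be named. Alternatives were pseudocounts of 1 and 0.01, scaling by median ratio or to the sum of FPKM, no filter or one at an average of 5 FPKM, a robust fit, library weights, other groupings in the fit, and leaving out each library. Promoters are those of RefSeq on GRCh38.p14. The values of 1 overlapping gene are not reported here.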

Additional observations from a re-analysis of the deposited data

Results flagged for a closer look

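Dose had another effect with Li-doped Ag2S NPs than with Ag2S NPs for 41 of the 47 genes by the test of the difference itself (limma, Benjamini-Hochberg adjusted p under 0.05). All 41 were called above 0. Of all genes tested 20.2% were called above 0 and 19.5% below. SPC25, PLK4 and FOXM1 showed it most, at 1.80, 1.69 and 1.63 on the log2 scale. All 3 were lower at 320 than at 160 μg/mL of Ag2S NPs by mean, and higher at 320 than at 160 μg/mL of Li-doped Ag2S NPs. For PLK4 the difference between doses of Ag2S NPs did not pass the test (adjusted p = 0.108). Of 105 other mitosis genes 54 were also called above 0, as were 19 of 34 DNA replication genes. The cause was not tested.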

How the results depend on the processing

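Counts of the 47 genes that fell or rose stayed within 1.5 times their value under the alternatives run, with 2 exceptions. The genes higher at 320 than at 160 μg/mL of Li-doped Ag2S NPs numbered 14 of 46 tested, in place of 23, with the 2 compared groups alone, and those higher with Li-doped than with Ag2S NPs at 320 μg/mL numbered 1 in place of 2 after scaling to the sum of FPKM. Leaving out 1 library at a time gave 47 and 46 to 47 genes lower than control with Li-doped Ag2S NPs at 160 and 320 μg/mL, and 38 to 43 and 47 with Ag2S NPs. The same gave 46 to 47 lower between particles at 160 μg/mL, 17 to 24 lower and 2 to 3 higher at 320 μg/mL, 34 to 39 lower between doses of Ag2S NPs, 17 to 28 higher between doses of Li-doped Ag2S NPs, and 39 to 43 for the difference between dose effects. Scaling by median ratio turned the sign of CDC20 (0.038) and PTTG1 (0.094) with Ag2S NPs at 160 μg/mL and of PTTG1 (0.027) with Li-doped Ag2S NPs at 320 μg/mL, and leaving out 1 library gave -0.15 to 0.059 for PTTG1 with Ag2S NPs at 160 μg/mL, the highest without replicate 4. The same scaling turned CENPW (0.044) and CDC25B (0.028) with Ag2S NPs at 160 μg/mL, CDC25B (0.16) with Ag2S NPs at 320 μg/mL and CDC16 (0.00070) with Li-doped Ag2S NPs at 160 μg/mL. KIFC2 was 0.11 with Ag2S NPs at 160 μg/mL under library weights, and CDC25B ran from -0.047 to 0.0021 with Ag2S NPs at 320 μg/mL when 1 library was left out, above 0 without control replicate 2 or 3. The cause was not tested. No paired analysis was possible because the groups share no replicate numbers. The depth is unknown, so counting error was not computed, and 3 libraries a group limit what low genes such as SGO1, CENPE and SPC24 can show.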
